A study of Mus musculus with 6 samples.

Results

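The genes described here were grouped as transcription factors that promote myelination by Schwann cells, the glia of peripheral nerve. They are 10 genes found on the array by gene name: Egr1, Egr2, Egr3, Nab1, Nab2, Sox10, Pou3f1, Pou3f2, Yy1 and Zeb2. The array carried 15 probes named for them, of which 12 passed the filter on dim probes, and 9 of the 10 genes were thus among the 19046 genes tested. Each array held the sciatic nerve RNA of 1 pool: 3 pools were of OGT_SCKO mice and the other 3, called Ctrl, of their control littermates. All mice were 1 month old, of the strain given as C56 BL6. OGT is the enzyme that adds the sugar O-GlcNAc to nuclear and cytoplasmic proteins, and the labels also call these mice OGT-KO. The driver of the deletion, the deleted part of the gene and the number of animals in a pool are not given in the sources used here.

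In developing nerve, Sox10 marks the Schwann cell lineage and is needed at every step of it. Together with the POU factors Pou3f1 (Oct6) and Pou3f2 (Brn2), which act at the promyelinating stage, it switches on Egr2 (Krox20). Egr2 with its partners Nab1 and Nab2 then turns on myelin genes and holds down genes of the immature state. Egr1 and Egr3 are relatives of Egr2 that respond quickly to growth factor signals, and Egr1 belongs to the premyelinating and injured state. Yy1 lies between neuregulin signalling and Egr2, and Zeb2 represses inhibitors of myelination.

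Stretches of DNA at these genes are shown to place what was measured and to show where letters of the searched motifs occur. The first is the probe that reads the coding part of Pou3f2, at chr4:22414031-22414090 on the minus strand (mm9), where the homeodomain that contacts DNA is encoded.
Pou3f2 probe: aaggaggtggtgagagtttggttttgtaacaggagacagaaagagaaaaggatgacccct
The others are the 250 bases before a RefSeq start (GRCm38.p6), read on the strand of the gene, with matches to the searched motifs in capitals. They are Pou3f2, at chr4:22488367-22488616 on the minus strand, the member that changed; Egr2, at chr10:67537619-67537868 on the plus strand, where capitals mark the octamer ATGCAAAT to which POU factors bind; and Nab1, at chr1:52500449-52500698 on the minus strand, where capitals mark EGR motifs.
Pou3f2 promoter: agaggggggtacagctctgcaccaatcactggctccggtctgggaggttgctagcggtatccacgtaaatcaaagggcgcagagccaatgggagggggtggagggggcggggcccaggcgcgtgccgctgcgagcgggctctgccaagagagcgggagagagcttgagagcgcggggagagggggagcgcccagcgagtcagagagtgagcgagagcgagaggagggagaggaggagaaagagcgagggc
Egr2 promoter: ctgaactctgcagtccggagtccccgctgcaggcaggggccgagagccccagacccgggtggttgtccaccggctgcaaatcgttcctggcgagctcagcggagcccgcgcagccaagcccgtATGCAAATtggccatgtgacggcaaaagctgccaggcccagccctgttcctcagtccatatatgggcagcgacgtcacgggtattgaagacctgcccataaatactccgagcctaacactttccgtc
Nab1 promoter: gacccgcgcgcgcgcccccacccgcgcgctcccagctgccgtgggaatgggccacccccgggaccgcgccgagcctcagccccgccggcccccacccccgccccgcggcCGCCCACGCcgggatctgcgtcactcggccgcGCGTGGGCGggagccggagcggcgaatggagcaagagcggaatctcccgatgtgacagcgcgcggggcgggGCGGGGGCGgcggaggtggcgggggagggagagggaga

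The RefSeq table held windows of 300 bases (250 before and 50 after a start) for 6 of the 10 members, 13 windows in all, and 10 motifs were searched on both strands. The Nab1 window held the EGR motif GCGTGGGCG at 2 places, which 0.612% of 32851 windows hold at least once, and GCGGGGGCG at 1 place, which 2.91% hold. Of the 5 Egr2 windows, 3 overlap each other and hold the same octamer, a motif in 1.74% of all windows. One of the 4 Zeb2 windows, at chr2:45110228-45110527, held AP-1 motifs (TGANTCA) at 2 places and the SOX motif ACAAAG at 1 place, found in 7.81% and 18.7% of all windows. The sequence of a Zeb2 probe that was designed on an Ensembl transcript lies in that window (GRCm38.p6). No match to TGACGTCA (CRE), AAGATGGC (YY1), CAGGTG (ZEB), TATAAA or ACAATG was found in a window of a member, and the windows of Pou3f2, Nab2 and Yy1 held no match to any of the 10. A match is a description of letters, not of binding.

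Among the members, Pou3f2 rose in OGT_SCKO nerves and the other 8 genes tested did not pass the test at an adjusted p of 0.05, although Pou3f1 passed with quantile normalisation, with or without normexp, and in the deposited table. The count of 1 of 9 stands beside 23.3% of all genes called (4440 of 19046; 11.2% higher and 12.1% lower). In 4 of the 9 genes the 3 Ctrl and 3 OGT_SCKO pools did not overlap, against 45.7% of all genes. In 3 of these OGT_SCKO was above Ctrl (20.4% of all genes) and in 1 below (25.4%), so none of these counts sets the members apart. The median log2 fold change of the 9 was 0.19, and that of all genes tested was -0.07. Values below are log2 of the signal relative to the 75th percentile of each array, and differences are OGT_SCKO minus Ctrl. In whole nerve, fewer cells of a type and less RNA per cell cannot be told apart.

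**Figure D1:**
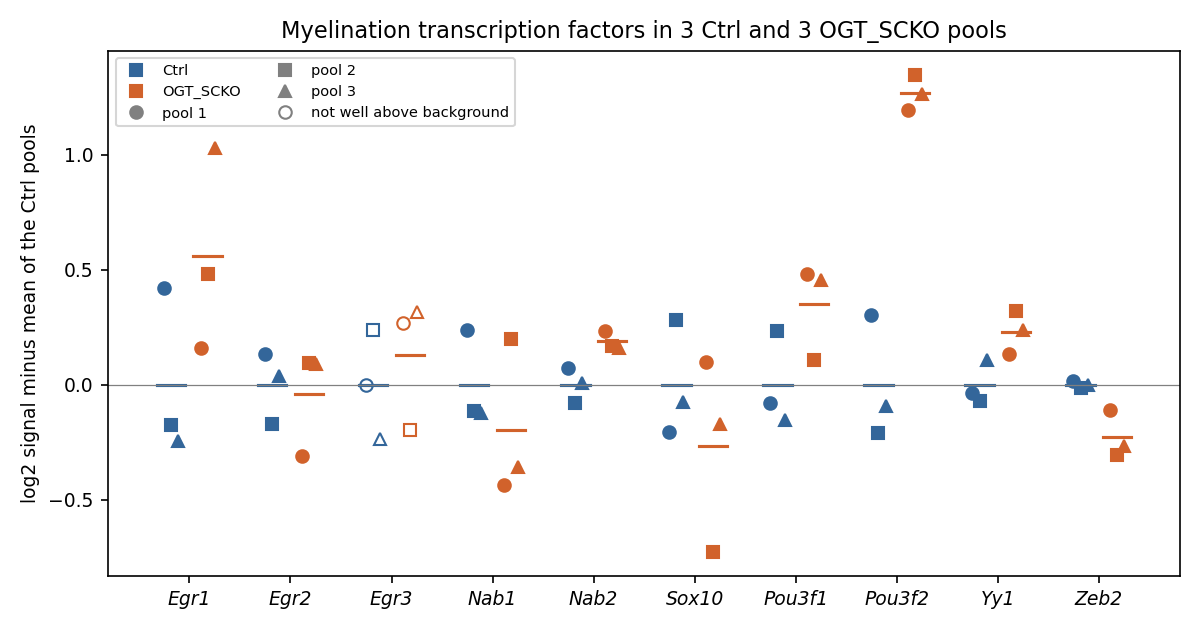
Log2 signal of each member in the 3 Ctrl (blue) and 3 OGT_SCKO (orange) pools, with the mean of the Ctrl pools of that gene set to 0; bars are group means and open symbols are not well above background. The OGT_SCKO pools of Pou3f2 lie apart from its Ctrl pools by more than those of any other member drawn.

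Facts of the whole series frame these values. The 75th percentile of the signal ran from 2749 to 6136 over the arrays, and 59.0% to 65.2% of probes were well above background. Ogt itself fell by 1.28 on the log2 scale (limma adjusted p = 0.00117; 0.0535 within slide 1). All 3 OGT_SCKO arrays and Ctrl 2 share slide 1, and Ctrl 1 and Ctrl 3 share slide 2, so a fit with slide as a block compares OGT_SCKO with Ctrl 2 only. All 9 Schwann cell markers, Sox10 and S100b among them, were well enough measured to be tested. Their summed signal, in units of the 75th percentile of the array, was 275 to 324 in Ctrl and 179 to 265 in OGT_SCKO, with 1 gene higher, 3 lower and 5 not called. The sums of some other cell types did not overlap between groups either. Adipocyte markers summed to between 3.36 and 19.5 in Ctrl and between 0.248 and 2.28 in OGT_SCKO, with 4 of 6 tested lower. Perineurial markers were at 46.1 to 63.1 and 31.5 to 38.7 (2 of 5 lower), and endothelial markers at 35.1 to 39.1 and 23.1 to 28.8 (2 of 7 lower). Mast cell markers were at 2.55 to 5.78 in Ctrl and 6.65 to 11.7 in OGT_SCKO, with 2 of 5 higher. Skeletal muscle markers were at 1.41 to 1.71 in Ctrl and 0.295 to 0.466 in OGT_SCKO, with 4 of 4 tested lower. Macrophage markers overlapped, at 38.2 to 45.3 in Ctrl and 37.2 to 47.9 in OGT_SCKO, with 2 of 9 higher. The part of these shifts in the results below was not tested.

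Sox10, the lineage factor of Schwann cells, was read by a probe at chr15:78985518-78985577 (mm9, minus strand). It had values of 4.95, 5.44 and 5.08 in Ctrl 1, 2 and 3, and 5.26, 4.43 and 4.99 in OGT_SCKO 1, 2 and 3. The groups overlapped, with Ctrl 2 the highest and OGT_SCKO 2 the lowest of the 6 pools. Its log2 difference was -0.27 (standard error 0.24, limma adjusted p = 0.435), and the 95% interval of the ratio ran from 0.561 to 1.23. The size depended on the processing: -0.55 with slide as a block, -0.027 with quantile normalisation, -0.053 with normexp before it, -0.032 in the authors' deposited table and -0.035 without OGT_SCKO 2. Sox10 passed in none of the 20 alternatives (limma adjusted p from 0.172 to 0.907).

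Pou3f2, the POU factor called Brn2, was read by a probe at chr4:22411520-22411579 (mm9, minus strand). It had values of -2.49, -3.00 and -2.88 in Ctrl 1, 2 and 3, and -1.60, -1.44 and -1.53 in OGT_SCKO 1, 2 and 3. Every OGT_SCKO pool was above every Ctrl pool, and the OGT_SCKO pools spread less (SD 0.077, n = 3) than the Ctrl pools (SD 0.27, n = 3). The rise was 2.41-fold, with a 95% interval from 1.87 to 3.12 (log2 fold change 1.27, standard error 0.15, limma adjusted p = 0.00266). The exact two-sided permutation test over pools gave p = 0.1, the smallest that 3 against 3 allow. The rise passed the test in all 20 alternatives, with log2 fold changes from 1.104 to 1.48 and limma adjusted p from 0.000986 to 0.0433. The slide block gave 1.48 (limma adjusted p = 0.0181), and slide 1 by itself gave the same value (limma adjusted p = 0.0433). Both rest on the same contrast with Ctrl 2, and within slide 1 the lone Ctrl array is assumed to vary like the OGT_SCKO arrays.

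Pou3f2 had further probes that were dimmer, and here they are given as values only. The probe at chr4:22413669-22413728 (mm9) read -3.99, -4.17 and -4.25 in the Ctrl pools and -2.71, -2.78 and -2.78 in the OGT_SCKO pools. It was well above background on 2 of 3 Ctrl arrays and on all 3 OGT_SCKO arrays, so it passed the filter through the OGT_SCKO pools. The homeodomain probe whose letters are shown above read -6.68, -6.63 and -7.32 in Ctrl and -5.47, -5.44 and -6.04 in OGT_SCKO. It was well above background on OGT_SCKO 2 alone among the 6 arrays, so it gets no fold, and it did not enter the test. In both dim probes every OGT_SCKO pool read above every Ctrl pool. Neither is counted as support for the rise, because of the filter and the low signal. Probes of 1 gene on the same arrays are not replicates of the condition.

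**Figure D2:**
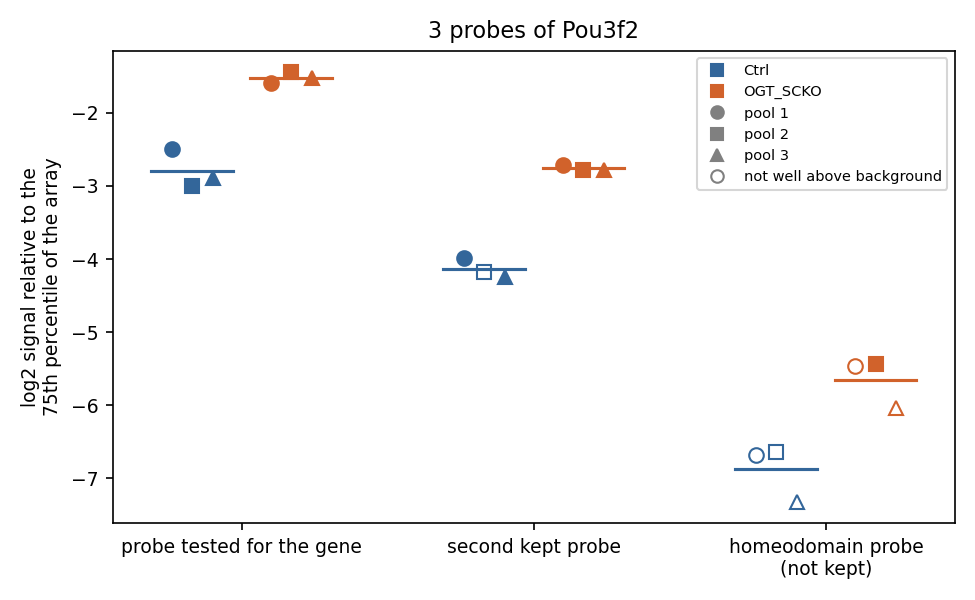
Log2 signal of the 3 Pou3f2 probes relative to the 75th percentile of each array, by pool, with bars at the group means. In each probe the 3 OGT_SCKO pools (orange) lie above the 3 Ctrl pools (blue), and open symbols show arrays where the probe was not well above background.

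Pou3f1, the POU factor called Oct6 that times the onset of myelination, was read at chr4:124337692-124337751 (mm9, plus strand). Its pools read 3.28, 3.59 and 3.21 in Ctrl and 3.84, 3.47 and 3.82 in OGT_SCKO. The groups overlapped, since Ctrl 2 lay above OGT_SCKO 2. The difference was 0.35 on the log2 scale (standard error 0.16, limma adjusted p = 0.156), with a 95% interval of the ratio from 0.978 to 1.66. With quantile normalisation it was 0.44 and passed (limma adjusted p = 0.0405), as it did with quantile normalisation after normexp (0.44, limma adjusted p = 0.0362) and in the authors' deposited table (0.44, limma adjusted p = 0.034). The slide block gave 0.12 (limma adjusted p = 0.709). Whether Pou3f1 rose thus depends on the scaling and on the Ctrl pools used.

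Within each array, the log2 difference between Pou3f2 and Pou3f1 was -5.77, -6.60 and -6.09 in the Ctrl pools and -5.44, -4.91 and -5.34 in the OGT_SCKO pools. All OGT_SCKO arrays were above all Ctrl arrays, and the shift was 0.92 (exact two-sided permutation p = 0.1, and 0.167 adjusted over 5 pairs). The same difference between Pou3f2 and Sox10 shifted by 1.54, from -7.95 ± 0.50 to -6.42 ± 0.50 (SD, n = 3 each; exact permutation p = 0.1, adjusted 0.167). Such a difference is free of a constant scaling of the array but not of quantile normalisation, after which the shifts were 0.86 for Pou3f2 against Pou3f1 and 1.33 for Pou3f2 against Sox10. Neither shift could pass the threshold in this design.

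Egr2, the factor on which myelin gene expression depends, was read at chr10:67004798-67004857 (mm9, plus strand). It had values of 3.04, 2.74 and 2.95 in Ctrl and 2.60, 3.00 and 3.00 in OGT_SCKO. OGT_SCKO 1 was the lowest pool and Ctrl 1 the highest, and the groups overlapped. On the log2 scale the groups differed by -0.041 (standard error 0.15, limma adjusted p = 0.867), and the 95% interval of the ratio ran from 0.753 to 1.26. Its sign changed in 7 of 20 alternatives, among them quantile normalisation (0.045) and slide as a block (0.13), and it passed the test in none of them (limma adjusted p from 0.607 to 0.993). The within-array difference between Egr2 and Sox10 shifted by 0.22 (exact permutation p = 0.7), with overlapping groups.

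**Figure D3:**
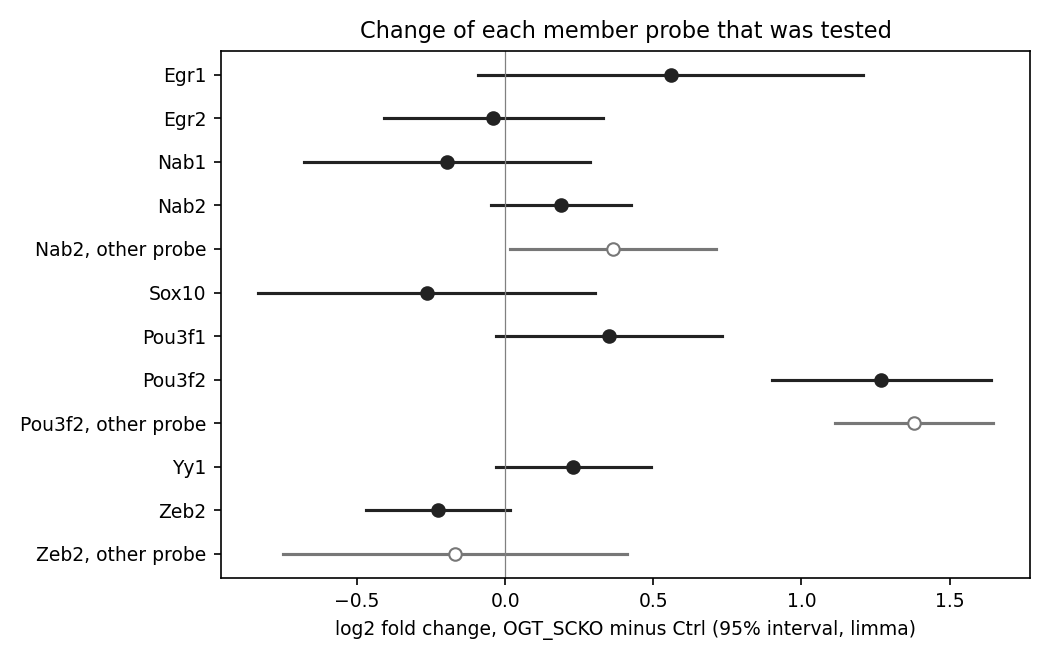
Log2 fold changes (OGT_SCKO minus Ctrl) with 95% intervals from limma for the 12 tested probes of the members; filled points are the probe that stands for the gene, open points another tested probe. The interval of the Pou3f2 gene probe lies above 0, from 0.90 to 1.64, and that of Egr2 runs from -0.41 to 0.33. The open Pou3f2 point is a probe that passed the filter through the OGT_SCKO pools, and it is not counted as support for the rise.

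Egr1, an immediate early gene of the same zinc finger family, was read at chr18:35024395-35024454 (mm9, plus strand). It had values of -1.60, -2.20 and -2.27 in Ctrl and -1.86, -1.54 and -0.99 in OGT_SCKO. The groups overlapped: OGT_SCKO 3 was the highest pool, and OGT_SCKO 1 was below Ctrl 1. The difference on the log2 scale was 0.56 (standard error 0.27, limma adjusted p = 0.177), with a 95% interval of the ratio from 0.938 to 2.31. Over the fits that leave out an array it ran from 0.32 to 0.77, and it passed the test in none of the 20 alternatives. Relative to Egr2 on the same array, Egr1 was higher in every OGT_SCKO pool than in every Ctrl pool, from -4.93 ± 0.29 to -4.33 ± 0.30 (SD, n = 3 each). That shift of 0.60 had an exact permutation p of 0.1 (0.167 adjusted over 5 pairs).

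Egr3, the third zinc finger factor of the family, was not well above background on any of the 6 arrays. Its probe, at chr14:70479222-70479281 (mm9, plus strand), read -6.13, -5.89 and -6.37 in Ctrl and -5.87, -6.33 and -5.81 in OGT_SCKO, in overlapping ranges, and no fold is given. Of the 7 pairs planned for comparison within arrays, those with Egr3 were therefore left out.

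Nab1 and Nab2 bind EGR factors and modulate their activity. Nab1, read at chr1:52515132-52515191 (mm9, minus strand), had values of 0.86, 0.51 and 0.50 in Ctrl and 0.19, 0.83 and 0.27 in OGT_SCKO, with OGT_SCKO 2 inside the Ctrl range and the other OGT_SCKO pools below it. Its log2 fold change was -0.20 (standard error 0.20, limma adjusted p = 0.495), and it ran from -0.078 without OGT_SCKO 1 to -0.40 without OGT_SCKO 2. Nab2, read at chr10:127098009-127098068 (mm9, minus strand), had values of 1.92, 1.77 and 1.86 in Ctrl and 2.08, 2.02 and 2.01 in OGT_SCKO, with no overlap. Its difference was small, at 1.14-fold, and did not pass (log2 fold change 0.19, standard error 0.099, limma adjusted p = 0.205). The second Nab2 probe, at chr10:127101413-127101472, read -2.37, -2.72 and -2.77 in Ctrl and -2.33, -2.10 and -2.33 in OGT_SCKO, also without overlap, and did not pass either (log2 fold change 0.36, standard error 0.15, limma adjusted p = 0.116 over all kept probes). The within-array difference between Nab2 and Nab1 shifted by 0.39 (exact permutation p = 0.3) with overlapping groups.

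Yy1, a zinc finger factor found in most cells, was read at chr12:110054782-110054841 (mm9, plus strand). The pools read -0.05, -0.09 and 0.09 in Ctrl and 0.12, 0.30 and 0.22 in OGT_SCKO. The groups did not overlap, but the gap between Ctrl 3 and OGT_SCKO 1 was small. Its difference was 0.23 on the log2 scale (standard error 0.11, limma adjusted p = 0.168), and it was positive in all 20 alternatives, from 0.18 to 0.30, and passed in none. Zeb2, which represses inhibitors of Schwann cell differentiation, was read at chr2:44842774-44842833 (mm9, minus strand). Its signal was 3.34, 3.31 and 3.33 in Ctrl and 3.21, 3.02 and 3.06 in OGT_SCKO. Its Ctrl pools were the closest together of any member tested (SD 0.015, n = 3), and all OGT_SCKO pools lay below them. The log2 fold change of -0.23 (standard error 0.10, limma adjusted p = 0.152) did not pass in any of the 20 alternatives.

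The other Zeb2 probes did not show that separation. The probe at chr2:44840038-44840097 (mm9) read -2.76, -3.07 and -3.22 in Ctrl and -3.51, -2.67 and -3.38 in OGT_SCKO, with OGT_SCKO 2 the highest of the 6 (log2 fold change -0.17, limma adjusted p = 0.636 over all kept probes). The probe inside the promoter window named above was well above background on 2 of 3 arrays in each group and was not tested. Its values were -4.94, -5.12 and -4.98 in Ctrl and -4.87, -4.77 and -5.06 in OGT_SCKO, and they overlapped.

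**Figure D4:**
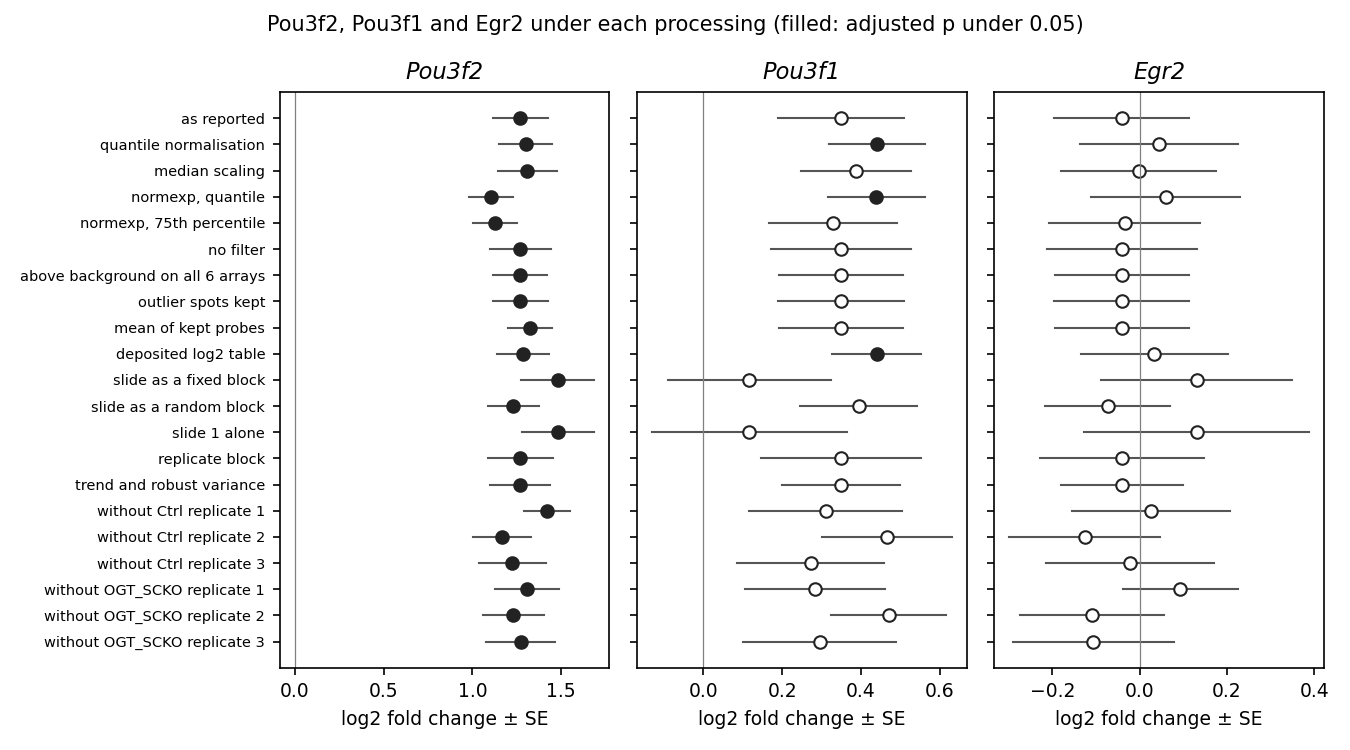
Log2 fold change ± standard error of Pou3f2, Pou3f1 and Egr2 as reported and in the 20 alternatives, with filled points at an adjusted p under 0.05; the horizontal scales differ. Pou3f2 is filled throughout, Pou3f1 in 3 alternatives and Egr2 in none.

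Genes on which these factors act were given by lists, which were chosen with earlier results of these data known. Of 24 myelin genes known as targets of Egr2 and Sox10, all tested, none rose, 2 fell and 22 did not pass, a smaller share lower than the 12.1% of all genes. Their log2 fold changes were negative in 21 genes with a median of -0.31, beside -0.07 for all genes. That count and that median hold for the scaling as reported. They were not obtained with quantile normalisation or the deposited table, so how far they depend on the scaling was not tested. The genes that fell were S100b, a calcium-binding protein of Schwann cells (1.59-fold, limma adjusted p = 0.0114), and Prx, periaxin of the myelin sheath (1.44-fold, limma adjusted p = 0.0375). Pllp, plasmolipin of the myelin membrane, had a log2 fold change of -0.29 (limma adjusted p = 0.0927). No gene of the list passed with slide as a block or without OGT_SCKO 3, and 1 passed without Ctrl 1, without Ctrl 2 or without Ctrl 3. Quantile normalisation and the deposited table each left 1 call, S100b, and smaller values of S100b, Prx and Pllp. With quantile normalisation S100b was at -0.45, Prx at -0.19 and Pllp at -0.076, and the deposited table gave -0.41, -0.20 and -0.075.

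Genes that stay low in myelinating Schwann cells went mostly the other way. Of 13 listed, 9 were tested: 6 rose, 1 fell and 2 did not pass, beside 11.2% of all genes higher and 12.1% lower, with a median log2 fold change of 0.77. Since earlier results were known when the list was chosen, this contrast with all genes is a description only. Gfap, a filament protein of immature and injured glia, rose 13.9-fold. Ccnd1, cyclin D1, rose 2.78-fold, Jun, which opposes Egr2, 2.64-fold and Id2, an inhibitor of helix-loop-helix factors, 3.43-fold (limma adjusted p from 0.000304 to 0.00997). Ngfr, the p75 neurotrophin receptor, and Ednrb, an endothelin receptor, rose 1.71-fold and 1.40-fold (limma adjusted p = 0.0206 and 0.0285). Ncam1, an adhesion molecule, fell 1.51-fold (limma adjusted p = 0.0359). Gfap, Ccnd1 and Jun were the 3 that passed with slide as a block, and 2 genes passed within slide 1. Leaving out Ctrl 3 or OGT_SCKO 3 left 4 calls. Hey2, Notch1, Pax3 and Hes1 were not tested because they were not above background on all arrays of a group.

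Of 23 cofactors and upstream signals of the members, 1 rose, 1 fell and 21 did not pass, beside 23.3% of all genes called, with a median of 0.01. Creb1, a cAMP-responsive factor, rose 1.29-fold (limma adjusted p = 0.0453) and Srebf1, a regulator of lipid synthesis, fell 1.34-fold (limma adjusted p = 0.036). Hdac1, a deacetylase that works with Sox10, had a log2 fold change of -0.31 (limma adjusted p = 0.0601) and Mapk3, a kinase of the ERK pathway, -0.44 (limma adjusted p = 0.127). Mapk3 was at -0.10 with quantile normalisation, -0.070 with normexp before it and -0.11 in the authors' deposited table. The calls of Creb1 and Srebf1 were lost with slide as a block or without any 1 of Ctrl 1, Ctrl 2, Ctrl 3, OGT_SCKO 2 or OGT_SCKO 3. That of Creb1 was also lost without OGT_SCKO 1 (limma adjusted p = 0.067) and with the mean of its kept probes (log2 fold change 0.25, limma adjusted p = 0.117). With normexp Creb1 did not pass under quantile normalisation (limma adjusted p = 0.0506) or 75th percentile scaling (limma adjusted p = 0.249). Srebf1 did not pass with median scaling (limma adjusted p = 0.0566) or with normexp and 75th percentile scaling (limma adjusted p = 0.0855).

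Egr1 and Egr3 belong to the immediate early genes, and the rest of that class was counted beside them. Of 24 tested, 7 rose, 2 fell and 15 did not pass, beside 11.2% of all genes higher and 12.1% lower, with a median of 0.15. Fos, an AP-1 subunit, rose 3.37-fold, Gadd45b, a stress-response gene, 2.70-fold and Ccn1 (Cyr61), a matricellular protein, 2.17-fold, while Klf2, a Kruppel-like factor, fell 2.04-fold (limma adjusted p from 0.000617 to 0.00344). Of all calls in the list, 4 passed with slide as a block and none within slide 1, against Ctrl 2 alone.

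**Figure D5:**
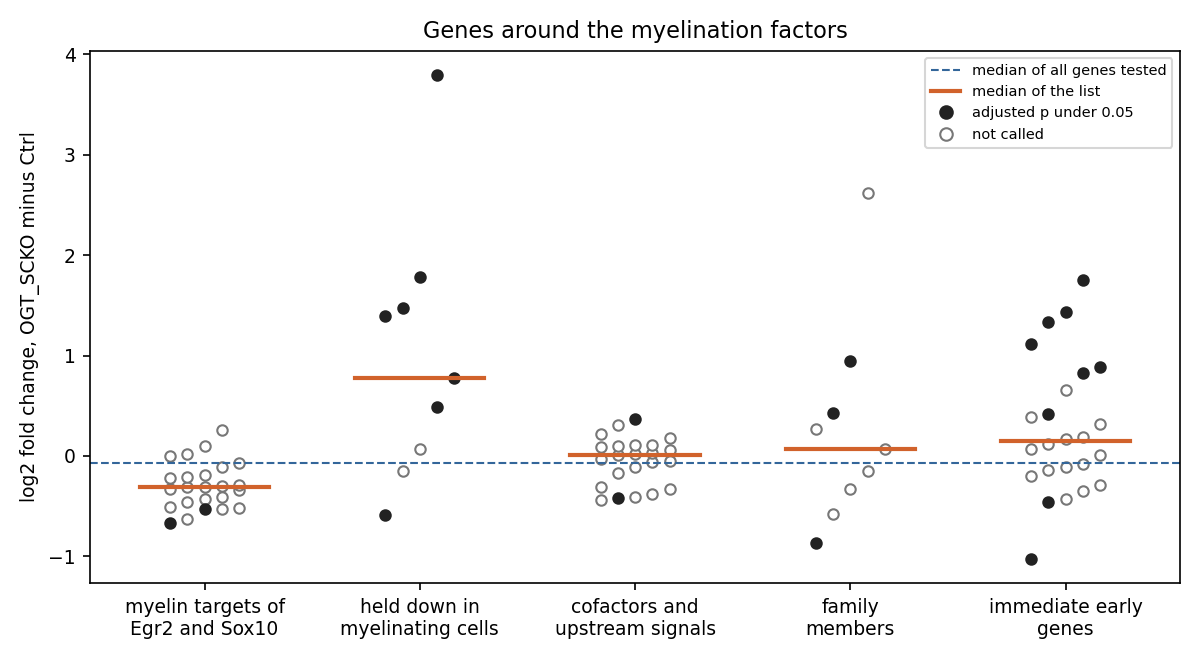
Log2 fold change of each tested gene in 5 lists around the members (points; filled at an adjusted p under 0.05), with the median of each list in orange and that of all 19046 genes as a dashed line at -0.07. The myelin targets lie mostly below the dashed line (median -0.31) and the genes held down in myelinating cells above it (median 0.77). All values are those of the scaling as reported, and the lists were chosen with earlier results of these data known.

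The genes whose pattern over the 6 arrays lay closest to that of Pou3f2 were Pla1a, a phospholipase, Iscu, a scaffold for iron-sulfur clusters, and Plod2, a collagen lysyl hydroxylase. Their root mean square distances from Pou3f2, after centring each gene, were 0.078, 0.079 and 0.088 on the log2 scale over 6 arrays, with log2 fold changes of 1.35, 1.24 and 1.22. They were picked for this closeness, so fold changes near that of Pou3f2 follow from the choice. Whether these genes are regulated together was not tested.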

How the data were processed

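Total RNA of sciatic nerve was labelled with a red dye, 1 pool per array, per the labels' protocols. The authors extracted the deposited spot intensity with Agilent Feature Extraction (version 11.5.1.1, per the file headers), whose switches show removal of a spatial trend, correction of a multiplicative trend and surrogates in place of the lowest signals. Flags in the deposited files (other values, 0 or 1) give spots above background, saturated or outlying; no spot was saturated. The authors' deposited log2 table has the same median, 9.13, in every column and correlates at 0.996 or more with the log2 scanner signal of its array. It served as an alternative; its processing and centring are not stated in the labels.

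For the tests, the processed signal was put on a log2 scale and each array's 75th percentile subtracted, without control and outlier spots. Probes well above background on all arrays of a group were kept (24268 of 39429), and a gene was its kept probe with the highest mean. Probes were renamed through a RefSeq table (GRCm38.p6; 27655 matched). Probe positions are those in the files (mm9), and exon and UTR annotation was not used here. Groups were compared with limma 3.58.1 in R 4.3.3 (lmFit, eBayes, no covariate), tested first on simulated data, with Benjamini-Hochberg adjustment over 19046 genes; further probes of a member were tested in a fit over all kept probes. Intervals are 95%. P-values measure the spread between 3 pools a group, and the number of arrays limits the precision. Lists were described by counts, without a set test. Named beside the members were Ogt, the 4 genes of smallest p in each list (1 of them is not reported here) and the 3 genes nearest a called member; Sox10, S100b and Ncam1 also stand among the Schwann cell markers. Zeb2's promoter window, Ngfr, Ednrb, Ncam1 and the list genes not tested were named after their values were seen. The members and lists were chosen with earlier results of these data known. Marker lists of 10 cell types were summed; those not given in the report are in the closing section.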

Additional observations from a re-analysis of the deposited data

How the results depend on the processing

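Pou3f2 kept its direction and its call in all 20 alternatives, and Nab1, Nab2, Egr1, Sox10, Yy1 and Zeb2 kept their direction and did not pass in any. The number of members changed was 1 as reported and 2 with quantile normalisation, with normexp and quantile normalisation, and with the deposited log2 table, Pou3f1 being the addition each time; it was 1 in every fit that left out an array. The log2 fold change of Egr2 turned to 0.045 with quantile normalisation, 0.060 with normexp and quantile normalisation, 0.033 with the deposited table, 0.13 with slide as a fixed block and 0.13 within slide 1, 0.026 without Ctrl 1 and 0.093 without OGT_SCKO 1, in a range of -0.13 to 0.093 with an array left out. The shift of Egr2 relative to Sox10 turned to -0.0021 without Ctrl 2 and -0.074 without OGT_SCKO 2, in a range of -0.074 to 0.54. All genes changed numbered 2722 with normexp scaled to the 75th percentile, 2632 with no filter on dim probes, 1226 with slide as a fixed block, 407 within slide 1, and 1976 to 5632 over the fits that left out an array. Calls over the 5 lists numbered 23 as reported, 15 with no filter, 7 with slide as a fixed block, 2 within slide 1, and 12 to 23 with an array left out. The cause was not tested. The fit within slide 1 and those that left out an array use fewer samples; the slide block uses all 6 arrays, but compares the groups through Ctrl 2.

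Replicate numbers did not pair the pools: deviations of same-numbered pools correlated at -0.27, -0.53 and 0.063. With the replicate block, 1480 genes and 10 list genes were called, and Pou3f2 passed (log2 fold change 1.27, limma adjusted p = 0.0301). Signal over background limits Egr3, which had no measured level on any array, and the homeodomain probe of Pou3f2.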

Other observations

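Relatives of the members were measured beside them. Of 13 family members, 9 were tested: 2 rose, 1 fell and 6 did not pass, beside 23.3% of all genes called, with a median log2 fold change of 0.07. Sox4, a SOX factor of immature cells, rose 1.93-fold (limma adjusted p = 0.0136), with every OGT_SCKO pool above every Ctrl pool. Pou6f1, a POU factor, fell 1.83-fold (limma adjusted p = 0.00558). The other call was Yy2, a close copy of Yy1. Whether the Yy2 probe shares signal with Yy1 was not tested. This dim probe passed the filter through the OGT_SCKO pools, so no fold is given. It read -4.76, -4.79 and -4.77 in Ctrl and -4.28, -4.27 and -4.51 in OGT_SCKO. Sox8, the nearest relative of Sox10 named here, had values of -3.23, -6.31 and -5.59 in Ctrl and -2.87, -1.51 and -2.91 in OGT_SCKO. It did not pass as reported (limma adjusted p = 0.0601). It was not well above background on all 6 arrays and passed the filter through the OGT_SCKO pools, so no fold is given. In some alternatives Sox8 passed, among them without Ctrl 1 (limma adjusted p = 0.0123) and with normexp and quantile normalisation (limma adjusted p = 0.0471). Because of that filter, these results for Sox8 are not counted as support for a rise. None of the 3 calls held with slide as a block, and without Ctrl 3 only 1 gene of the list was called.

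Egr4, Pou3f3, Pou3f4 and Sox11 were not tested, as they were not above background on all arrays of a group. The summed signal of fibroblast markers was 386 to 623 in Ctrl and 259 to 460 in OGT_SCKO, that of mural markers 11.8 to 16.8 and 9.57 to 13.3, and that of neuron markers 6.56 to 10.5 and 4.55 to 8.67.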
